A study of Arabidopsis thaliana with 44 samples.

Results

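Trimethylation of histone H3 at lysine 27 (H3K27me3) was compared between pie1-5 and WT shoots of Arabidopsis thaliana by chromatin immunoprecipitation and sequencing (ChIP-seq). All regions of the 2 deposited pie1-5 tables were taken, 5736 regions in that of replicate 1 and 5893 in that of replicate 2. These 11629 regions are part of 36662 H3K27me3 regions in 6 such tables of the series, which also covers the mutants pkl-1 and clf-28 in 44 samples. Plants carried the pie1-5 allele or were WT, and no other allele, transgene or treatment is named in the labels. Shoots were harvested after 3 weeks in soil under 16 h of light, following 3 d of cold at 4 °C. Each table sets 1 pie1-5 library against WT. The labels list 2 WT anti-H3K27me3 samples, but the WT counts were equal in all 2299 regions whose boundaries were identical in both tables, so WT enters as 1 column. Whether that column is 1 library or a pool of both is not stated, and the comparison is of 2 pie1-5 libraries with 1 WT column. Whole shoots were used, so a mark lost from all cells and a mark lost from some cells cannot be told apart.

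H3K27me3 is placed by Polycomb repressive complex 2 and marks genes kept silent outside their tissue or stage, such as floral, meristem and seed genes in leaves. CLF and SWN are its methyltransferases in vegetative tissue. PIE1 is the ATPase of the SWR1 complex, which exchanges histone H2A for the variant H2A.Z. H2A.Z sits at the start of many active genes and along the body of many responsive, lowly expressed ones, so many H3K27me3 regions also carry it.

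Depth of the H3K27me3 libraries was similar between genotypes. The pie1-5 libraries held 16.0 and 13.9 M reads, and the WT column 13.6 M. Regions were 200 to 250200 bp long with medians of 2800 and 2600 bp, and covered 25.1 and 22.9 Mb. The median region held 747 and 745 reads in pie1-5, against 848.5 and 800 reads in WT within the same boundaries. Of all reads, 55.9% and 58.0% fell inside the regions in pie1-5, against 67.8% and 66.1% in WT. A smaller share of the reads of both pie1-5 libraries thus lay in H3K27me3 regions. Levels below are reads scaled to the library total and to the length of the region (RPM per kb), so they carry that difference. Boundaries differ between the tables, so a ratio is taken within one table and the WT level given is the mean over the boundaries of both.

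The pie1-5 libraries resembled each other less than either resembled WT. Over 5017 regions with reads in all 6 tables, log2 levels of pie1-5 replicates 1 and 2 correlated at r = 0.464, and their difference had an SD of 0.72. Replicate 1 against WT gave r = 0.641 with an SD of 0.57, and replicate 2 against WT gave r = 0.768 with an SD of 0.43. The closest library to pie1-5 replicate 2 was pkl-1 replicate 1, with r = 0.955 and an SD of 0.22, closer than the pkl-1 replicates were to each other (r = 0.817, SD 0.36). These points are regions that share libraries, not replicates. The counts of pie1-5 replicate 2 and pkl-1 replicate 1 were not copies, being equal in 23 of 3900 regions with identical boundaries. Whether these libraries were exchanged or prepared together cannot be told from the tables. The identity of both pie1-5 replicate 2 and pkl-1 replicate 1 is therefore in doubt. The other library, pie1-5 replicate 1, was not close to any, with r between 0.079 (clf-28 replicate 2) and 0.641 (WT). For this reason each value below is given for both pie1-5 replicates.

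**Figure D1:**
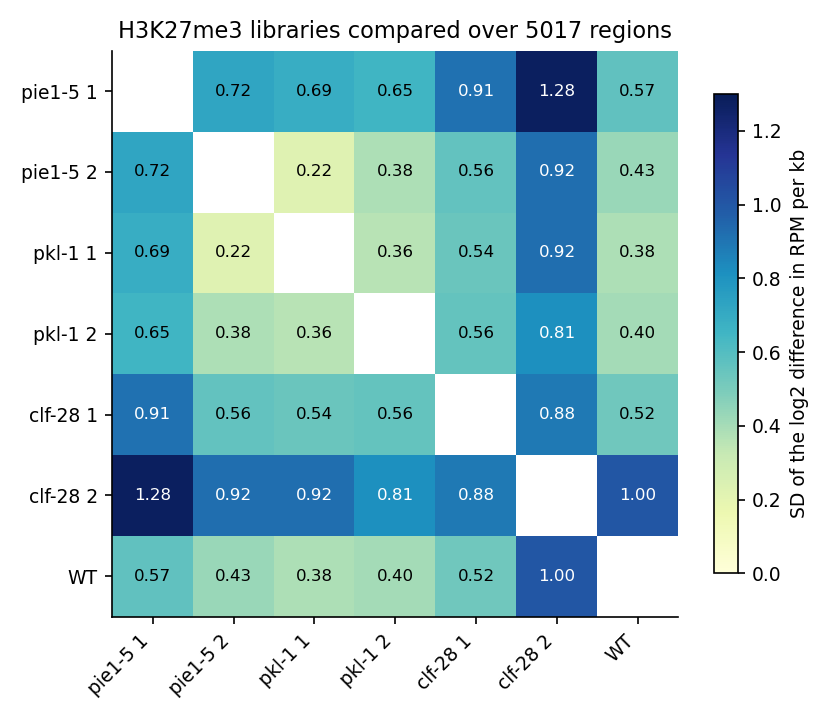
SD of the log2 difference in H3K27me3 level (RPM per kb) between each pair of libraries, over 5017 regions, with darker squares for less alike pairs. The pair pie1-5 1 and pie1-5 2 stands at 0.72, above pie1-5 1 and WT (0.57) and pie1-5 2 and WT (0.43), and the pair pie1-5 2 and pkl-1 1 stands at 0.22.

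Most H3K27me3 regions had slightly lower levels in pie1-5 when scaled to library totals. Of the regions, 5180 were found in both tables as best matches overlapping by at least 50% of the shorter one. Their median level was 16.9 and 21.7 RPM per kb in pie1-5 replicates 1 and 2, against 23.6 RPM per kb in WT. The median log2 ratio of pie1-5 over WT was −0.45 in replicate 1 and −0.20 in replicate 2. In edgeR fits of both replicates with TMM or upper-quartile factors, the median was 0.01 and −0.03, so the lower level is relative to the library total. In replicate 1, 4398 regions (84.9%) were below WT, and in replicate 2, 3610 regions (69.7%). Both replicates were below WT in 3143 regions (60.7%), both were above it in 315 (6.08%), and they lay on opposite sides of it in 1722 (33.2%). Unrelated replicates with the shares of 84.9% and 69.7% would have nearly as many regions below WT in both. Both ratios also share the WT column, so the 60.7% is not read as agreement between replicates.

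The pie1-5 libraries also differed from each other. In 2028 of the 5180 regions (39.2%) their levels were at least 1.5-fold apart. A difference of at least 1.5-fold from WT in both replicates was reached by 278 regions that were lower in pie1-5 (5.37%) and by 55 that were higher (1.06%). In the authors' deposited tables, whose test compares the reads of 2 libraries and not the genotypes, 1046 regions of the replicate 1 table had an FDR below 0.05 for more reads in pie1-5 (18.2%) and 4246 for fewer (74.0%). In the authors' deposited table of replicate 2, these were 1621 (27.5%) and 3344 (56.7%) regions.

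With both pie1-5 replicates in edgeR's quasi-likelihood test, 1 of 5180 regions passed an adjusted p of 0.05 (0.0193%), with more reads in pie1-5, and 0 regions passed with fewer (0.00%). At an unadjusted p below 0.05 the same test gave 12 regions higher and 86 lower in pie1-5, and DESeq2 called 2 regions higher and 0 lower after adjustment, with 15 and 28 at an unadjusted p below 0.05. That balance depended on the scaling: edgeR gave 59 higher and 1 lower at an unadjusted p below 0.05 with TMM factors, and 39 and 3 with upper-quartile factors. Only 1 residual degree of freedom was available, from the spread between the 2 pie1-5 libraries, and the spread of WT was not measured. In an exact permutation test of 2 libraries against 1, a doubled one-sided p cannot go below 0.667.

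**Figure D2:**
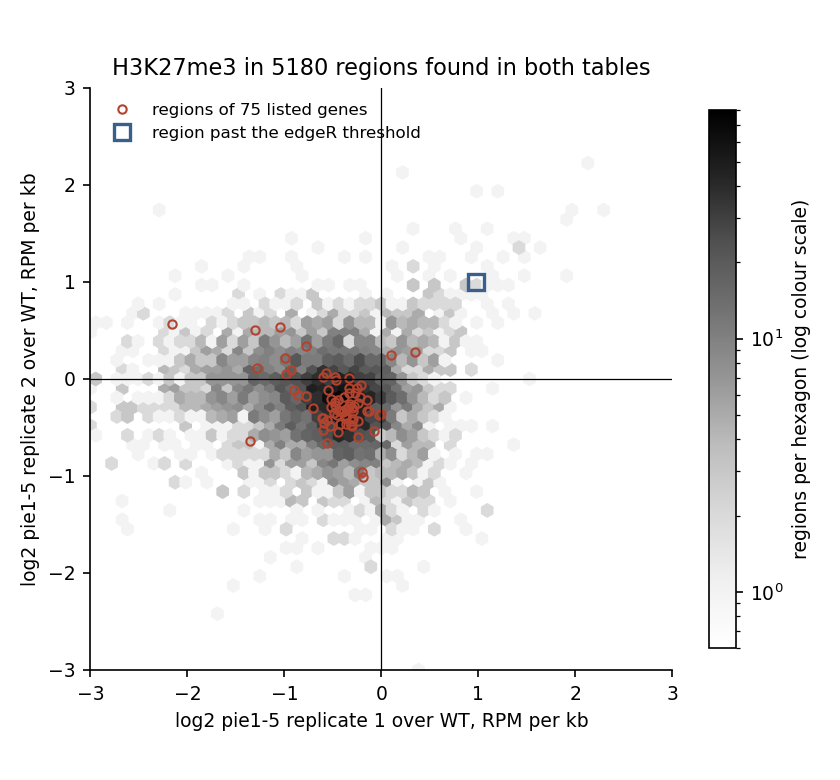
Log2 ratio of H3K27me3 level (RPM per kb) in pie1-5 replicate 1 over WT (x axis) and in pie1-5 replicate 2 over WT (y axis) for 5180 regions, shaded by number of regions on a log colour scale; circles mark the regions of 75 listed genes and the square the region past the edgeR threshold. Most of the regions, 60.7%, lie at the lower left, spread along the axes more than along the diagonal, and the listed genes cluster near −0.38 and −0.30.

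The region that passed was also the longest, at chr2:3259601-3509800 (TAIR10) with the same boundaries in both tables. It holds 171 annotated genes, of which 85 are protein-coding and 42 pseudogenes, and it is the insertion of mitochondrial DNA in chromosome 2, nearly identical in sequence to the mitochondrial genome, so reads of the organelle and of the nucleus cannot be told apart there. It had 93948 and 82859 reads in pie1-5, against 40620 in WT. That is 23.4 and 23.8 RPM per kb in pie1-5, against 11.9 RPM per kb in WT, with both pie1-5 libraries above WT by nearly the same factor (1.96-fold and 1.99-fold). The edgeR log2 fold change was 0.98 ± 0.09 (SE), with an adjusted p of 1.51e-24. In 7 other fits of the same libraries the adjusted p lay between 1.85e-63 and 0.0404. The call was lost where all 7 H3K27me3 columns shared 1 fit (edgeR adjusted p = 1.00). H2A.Z reads in the same region were also higher in pie1-5, with log2 ratios of 2.47 and 2.54. Against the same WT column, the H3K27me3 log2 ratios here were 1.23 and 1.90 in pkl-1 and 1.33 and 3.35 in clf-28.

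Another 4 regions passed only under other settings of the region test. The region chr1:15642601-15648800, with no annotated gene and no H2A.Z region over it, had 1985 and 1584 reads in pie1-5, against 377 and 322 in WT within the boundaries of the same tables. Both pie1-5 libraries were well above WT, at 19.98 and 24.8 RPM per kb against 4.81 in WT (4.46-fold and 4.81-fold). Its edgeR log2 fold change was 2.23 ± 0.64 with an adjusted p of 0.557. The adjusted p was 0.00992 with DESeq2, and in edgeR 0.0404 with TMM factors and 0.0229 with upper-quartile factors. Against the same WT column, this region also had log2 ratios of 1.17 in pkl-1 replicate 2 and 2.69 in clf-28 replicate 2. No matched region was found in pkl-1 replicate 1 and clf-28 replicate 1. The region chr5:20589801-20604800, over AT5G50620, had 31.0 and 44.4 RPM per kb in pie1-5 and 20.2 in WT (edgeR adjusted p = 0.316). It was 15000 bp long in the replicate 1 table and 6200 bp in that of replicate 2. It passed with TMM factors (adjusted p = 0.0404) and upper-quartile factors (0.000797). The region chr5:15650001-15702400 over the germin-like protein gene GLP6 passed with upper-quartile factors only (edgeR adjusted p = 0.000599, against 0.316), with log2 ratios of 1.06 and 0.26. It spanned 52400 bp in the replicate 1 table but 7400 bp in that of replicate 2 (chr5:15653201-15660600). The ratio of replicate 2 thus covers only a part of it.

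The only region with fewer reads in pie1-5 to pass under any setting was chr1:20143801-20164400, which holds 9 protein-coding genes, among them GDSL-type lipase genes. It had 7827 and 5262 reads in pie1-5, against 9915 in WT, or 23.7 and 18.4 RPM per kb in pie1-5 against 35.4 in WT. Both pie1-5 libraries were below WT and differed from each other. The edgeR log2 fold change was −0.75 ± 0.20 with an adjusted p of 0.316, and 0.0212 when only the 2299 regions of identical boundaries were tested. The same region had log2 ratios of −1.38 and −1.28 in pkl-1 and −1.55 and −2.56 in clf-28, set against the same WT column.

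Of the 5 regions with most WT reads, 1 was the mitochondrial insertion described above, and the other 4 were lower in both pie1-5 libraries. The region chr4:8714801-8814800, over the triterpene synthase genes PEN1 and BARS1 and their cytochrome P450 neighbours, had 31.5 and 32.6 RPM per kb in pie1-5, against 36.1 in WT. The region chr5:17021601-17065200, over the marneral synthase gene MRN1 and CYP71A16, had log2 ratios of −0.15 and −0.24. The regions chr3:7713601-7773000 and chr4:10730001-10765600 had −0.19 and −0.18, and −0.36 and −0.34. Among the 5 longest regions was also that of the myrosinase genes TGG1 and TGG2, chr5:9055801-9092800, with −0.09 and −0.23.

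The medians of the pie1-5 replicates came closer together with the length of a region. In 124 regions over 16 kb, the median log2 ratio was −0.24 in both replicates, and 82.3% of these regions were below WT in both. In 554 regions of 8 to 16 kb the medians were −0.30 and −0.25. In 1235 regions of 4 to 8 kb they were −0.38 and −0.24, and in 1558 regions of 2 to 4 kb −0.45 and −0.19. Short regions parted the replicates. In 1215 regions of 1 to 2 kb the medians were −0.71 and −0.10, and in 494 regions of up to 1 kb −1.17 and −0.06, with 50.8% below WT in both.

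The WT level and the cover by H2A.Z also went with the ratio. In the 1295 regions with the lowest WT level, the median log2 ratios were −0.18 and −0.04, and these held 50 of the 55 regions that were at least 1.5-fold higher in both pie1-5 libraries. A low WT value enters both the class and the ratio here. In the 1295 with the highest WT level the medians were −0.47 and −0.25. In 3328 regions that H2A.Z regions of the same replicate covered by at least 50% of the length in both tables, the medians were −0.62 and −0.12. In 1131 regions covered by less than that in both tables, the medians were −0.15 and −0.41. The replicates thus ranked these classes of cover in opposite order.

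The same opposite order held among short and long regions. In 1263 covered regions of up to 2 kb the median log2 ratios were −1.05 and −0.02, and in 284 uncovered ones 0.00 and −0.61. In 1087 covered regions over 4 kb the medians were −0.42 and −0.19, and in 509 uncovered ones −0.18 and −0.34. In 326 regions where no base was covered by H2A.Z the medians were 0.09 and −0.60. Chromosomes did not stand apart: the medians were between −0.48 and −0.38 in replicate 1 and between −0.22 and −0.17 in replicate 2. Regions with a protein-coding gene (3793) had medians of −0.46 and −0.18, and regions with no gene (1070) −0.37 and −0.34.

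**Figure D3:**
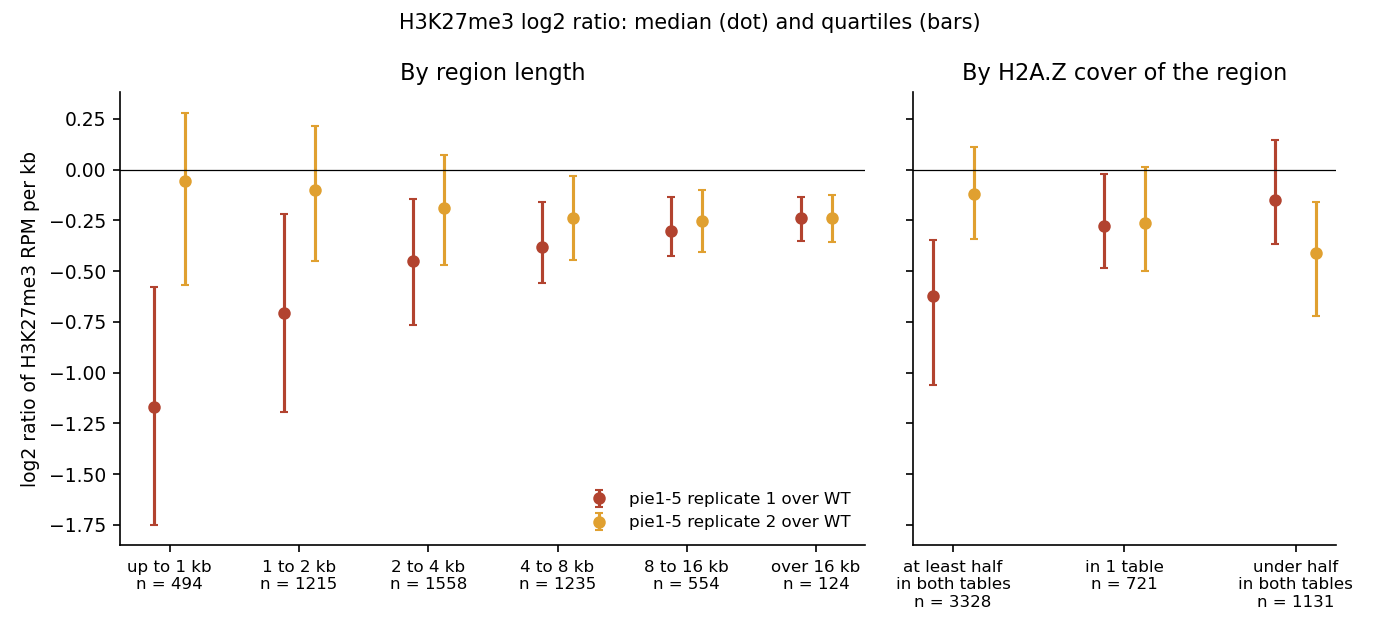
Median (dots) and quartiles (bars) of the log2 ratio of H3K27me3 level in pie1-5 over WT by region length (left) and by the share of a region covered by H2A.Z (right), for pie1-5 replicate 1 and replicate 2. The replicates meet at −0.24 in regions over 16 kb and part to −1.17 and −0.06 in regions up to 1 kb, and they order the H2A.Z classes oppositely.

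The 278 regions at least 1.5-fold lower in both pie1-5 libraries were short and carried genes of mixed function. Their median level was 10.3 and 11.9 RPM per kb in pie1-5, against 21.5 RPM per kb in WT, their median length 1800 bp, and 53.6% held a protein-coding gene. None of them passed the edgeR test. The following examples were chosen after their values were seen. The region chr1:29484601-29485600 over GSTU20, a glutathione S-transferase gene, had 64 and 94 reads in pie1-5, against 238 in WT. The region chr3:23103601-23105800 over AT3G62460 had 116 and 364 reads in pie1-5, against 658 in WT. Both were below WT in each pie1-5 library, and AT3G62460 also shows how far the replicates differed, with log2 ratios of −2.74 and −0.89. The region of NRPE3B, a gene for a subunit of the plant RNA polymerases of silencing, had 4.68 and 10.03 RPM per kb in pie1-5 and 20.7 in WT.

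Examples of 4 kb or more, also chosen after their values were seen, are the following. The region chr2:12606001-12610000, which holds the abscisic acid-induced phosphatase gene HAI3, had 864 and 855 reads in pie1-5, against 1432 in WT. The region chr1:23157201-23162600 of FMO GS-OX3, which oxidises glucosinolates, had 942 and 1070 reads in pie1-5, against 1712 in WT. The region chr1:26644601-26648600 of the caleosin gene CLO4 had 795 and 624 reads in pie1-5, against 1160 in WT. In these 3 regions both pie1-5 libraries lay together below WT, with log2 ratios between −1.10 and −0.71, and each had an adjusted p of 0.996 in edgeR.

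The 55 regions at least 1.5-fold higher in both pie1-5 libraries started from low WT levels. Their median was 17.3 and 20.5 RPM per kb in pie1-5, against 8.69 RPM per kb in WT, and 26 of them held no gene. The region of HB31, a zinc finger homeodomain factor, at chr1:4936201-4940600, had 1170 and 652 reads in pie1-5, against 469 and 278 in WT within the boundaries of the same tables. The region over AT1G49790 had 17.7 and 13.1 RPM per kb in pie1-5 and 5.71 in WT. That over AT3G44570 had 17.0 and 19.4 RPM per kb in pie1-5 and 4.70 in WT. In each of these, both pie1-5 libraries were above WT, and none passed the edgeR test.

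Developmental, defence and chromatin genes and tissue markers were described through 11 lists with 124 genes, of which 75 lay by at least 50% of their length in a region of both tables. Their 75 regions were longer than most, with a median of 6800 bp against 3000 bp over all paired regions, and higher in WT. Both pie1-5 replicates were below WT in 61 of them (81.3%), both above in 2, and split in 12, where over all paired regions 60.7% were below in both. In the 1295 regions with the highest WT level that share was 82.7%, and in regions of 4 to 8 kb it was 68.7%. The 81.3% and the counts of single lists below are thus not read as an excess. The median log2 ratios of the listed regions were −0.38 and −0.30, against −0.45 and −0.20 over all paired regions. PR2 alone reached 1.5-fold lower in both replicates, none reached 1.5-fold higher, and none passed the edgeR test. The direction in the joint fit depended on the scaling: 73 of 75 regions were lower with library totals, which put the median of all regions at −0.32, but 40 with TMM factors and 50 with upper-quartile factors, which moved that median by 0.33 and 0.28.

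**Figure D4:**
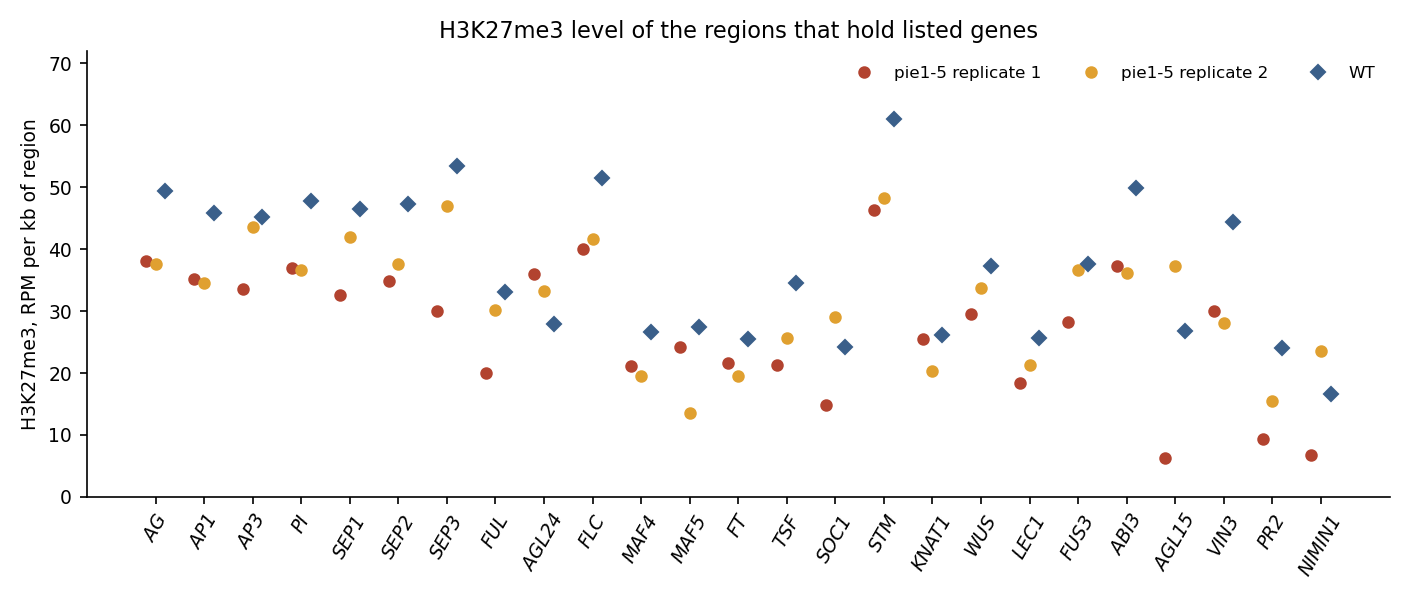
H3K27me3 level (RPM per kb) of the regions holding 25 of the listed genes in pie1-5 replicate 1, pie1-5 replicate 2 and WT. In the long regions of AG, PI, FLC and STM both pie1-5 points lie together below WT, while in the short regions of AGL15 and NIMIN1 they lie on opposite sides of it.

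Floral organ identity genes had high H3K27me3 levels in both genotypes, in most cases lower in pie1-5. All 15 listed genes lay in regions, 13 with both replicates below WT, 1 above and 1 split. AG, which specifies stamens and carpels, had 38.0 and 37.6 RPM per kb in pie1-5, against 49.4 in WT (chr4:10378601-10389200, log2 ratios −0.36 and −0.40). The petal and stamen gene PI had 36.9 and 36.6 RPM per kb in pie1-5, against 47.8 in WT. In both genes the pie1-5 replicates were nearly equal and below WT. AP1, a gene of floral meristem and sepal identity, had 35.2 and 34.6 RPM per kb in pie1-5 and 45.9 in WT.

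Other floral genes showed the gap between replicates. SEP3, the cofactor that joins floral MADS-box factors into complexes, had 30.03 and 47.0 RPM per kb in pie1-5, against 53.4 in WT (chr1:8590801-8598200, log2 ratios −0.71 and −0.29). AP3, the partner of PI, had 33.6 and 43.6 RPM per kb in pie1-5, against 45.2 in WT. FUL, active in fruit and flowering, had 20.1 and 30.2 RPM per kb in pie1-5, against 33.0 in WT, with replicate 2 above WT inside the wider boundaries of its table (log2 ratios −0.997 and 0.22). AGL24, a promoter of flowering that is transcribed in shoots, was the 1 listed floral gene above WT in both, with 36.0 and 33.3 RPM per kb in pie1-5, against 27.9 in WT.

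Regions of flowering time genes were lower in both replicates for 7 of the 8 listed genes in regions. FLC, the flowering repressor silenced by Polycomb after cold, had 40.0 and 41.7 RPM per kb in pie1-5, against 51.4 in WT (chr5:3172201-3181600, log2 ratios −0.44 and −0.22). Its relative MAF4 had 21.1 and 19.4 RPM per kb in pie1-5 and 26.6 in WT. MAF5, next to MAF4, had 24.2 and 13.6 RPM per kb in pie1-5 and 27.5 in WT, with the replicates further apart. FT, the mobile flowering signal, had 21.7 and 19.5 RPM per kb in pie1-5 and 25.5 in WT (chr1:24325001-24346800, log2 ratios −0.07 and −0.53). SOC1, a floral integrator that is transcribed in shoots, was split, with 14.8 and 29.1 RPM per kb in pie1-5 and 24.3 in WT.

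Shoot meristem and boundary genes had 11 of 12 regions below WT in both replicates. STM, which keeps meristem cells undifferentiated, had the highest WT level of its list, with 46.2 and 48.3 RPM per kb in pie1-5, against 61.0 in WT (chr1:23058401-23071800). CUC2, a gene of organ boundaries, had 43.1 RPM per kb in each pie1-5 replicate, against 55.7 in WT. KNAT1, a relative of STM, had 25.5 and 20.3 RPM per kb in pie1-5 and 26.1 in WT, so replicate 1 was nearly at the WT level. For STM and CUC2 the pie1-5 replicates lay together below WT.

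Seed genes had 12 of 14 regions below WT in both replicates. LEC1, a master gene of embryo identity, had 18.4 and 21.3 RPM per kb in pie1-5, against 25.7 in WT (chr1:7727601-7734200). ABI3, which directs seed maturation, had 37.3 and 36.2 RPM per kb in pie1-5, against 49.9 in WT. AGL15, an embryo MADS-box gene in a region of 2000 bp in the replicate 1 table, had 6.36 and 37.2 RPM per kb in pie1-5, against 26.7 in WT. That is the widest split between replicates among the listed genes, with log2 ratios of −2.15 and 0.57.

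Of 23 genes of the Polycomb machinery and its antagonists, 2 lay in regions. VIN3, which starts FLC silencing in the cold, had 29.9 and 27.99 RPM per kb in pie1-5, against 44.3 in WT (chr5:23247201-23260600, log2 ratios −0.57 and −0.66, edgeR adjusted p = 0.996). ULT1, a Trithorax-type antagonist, had 15.5 and 17.2 RPM per kb in pie1-5, against 14.5 in WT. VIN3 was lower and ULT1 slightly higher in both replicates. None of the 6 SWR1 and H2A.Z genes lay in a region of both tables.

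Auxin genes had 6 of 8 regions below WT in both replicates and 2 split. YUC1, an auxin synthesis gene, had 35.7 and 39.3 RPM per kb in pie1-5, against 52.6 in WT. Salicylic acid defence genes had 5 of 7 regions below WT in both. PR2, a glucanase gene induced in defence, had 9.43 and 15.5 RPM per kb in pie1-5, against 24.1 in WT (chr3:21188801-21192600). NIMIN1, an inhibitor of the salicylic acid receptor NPR1 in a region of 600 bp, was split, with 6.76 and 23.6 RPM per kb in pie1-5 and 16.7 in WT.

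Markers of other tissues were examined as a check of the shoots. Regions held 5 of 5 root markers, 4 of 6 anther and pollen markers and 0 of 4 leaf markers, with both replicates below WT in 4 root and 2 anther and pollen regions. Summed transcript levels of the leaf markers were 8572 to 10287 CPM (counts scaled to the library total) in pie1-5 and 9608 to 10392 CPM in WT. The root markers summed to 0.287 to 1.06 CPM in pie1-5 and 0 to 3.30 CPM in WT, and the anther and pollen markers to 0.187 to 3.95 CPM in pie1-5 and 0 to 0.150 CPM in WT. The part of these low levels in the results below was not tested.

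H2A.Z itself had lower levels over nearly all its regions in pie1-5, and more so in replicate 1. The H2A.Z libraries differed in depth, with 8.22 and 10.3 M reads in pie1-5, against 19.1 and 19.3 M in WT. Of 14570 H2A.Z regions found in both tables, 13606 (93.4%) were below WT in both replicates, with median log2 ratios of −1.17 and −0.41. In edgeR's test 3 regions passed an adjusted p of 0.05 (0.0206%), all higher in pie1-5, and 0 passed as lower, while 7 and 1866 had an unadjusted p below 0.05. DESeq2 also called 3 regions, all higher. Without pie1-5 replicate 2 the count was 13850, of which 13843 were lower, and without any other single library it was 0. With TMM factors the median over all H2A.Z regions, −0.73 in the edgeR fit, was 0.02, and 527 regions were higher and 329 lower at an unadjusted p below 0.05 (287 and 663 with upper-quartile factors), so the lower level is relative to the library total. Within 3428 H3K27me3 regions that held a matched H2A.Z region, the median H2A.Z log2 ratios were −1.04 and −0.37, and 94.7% were below WT in both. One of the regions called higher, chr2:3417201-3509800, lies inside the mitochondrial insertion described above.

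Lower H2A.Z went with lower H3K27me3 in replicate 1 and hardly in replicate 2. Ordered by mean H2A.Z log2 ratio, the 857 regions with the lowest had median H3K27me3 log2 ratios of −0.59 and −0.20, and the 857 with the highest −0.34 and −0.18. Their median lengths were 3100 and 4700 bp, and shorter regions also had lower H3K27me3 ratios in replicate 1. The part of length was not tested. Across 3741 regions the H3K27me3 ratio of replicate 1 correlated with the H2A.Z ratio of replicate 1 at r = 0.36, and across 3747 regions the ratios of replicate 2 correlated at 0.07. Across replicates, r was −0.05 for H3K27me3 of replicate 1 with H2A.Z of replicate 2 and 0.10 for the reverse pairing. The H2A.Z ratio is from H2A.Z regions that lay by at least 50% of their length in the H3K27me3 region. Regions are not independent, so these are descriptions. The difference between replicates was not tested.

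Transcripts of the same genotypes came from 3 RNA-seq libraries each, with 21.6 to 33.1 M reads over all 12 libraries of the common fit. In edgeR's quasi-likelihood test of 20375 genes, 775 (3.80%) were higher and 725 (3.56%) lower in pie1-5 than in WT. The total of 1500 was 866, 917 and 749 without WT replicates 1, 2 and 3. PIE1 transcripts were at 3.73, 3.95 and 5.69 CPM in pie1-5 and 8.10, 6.86 and 10.1 CPM in WT. All pie1-5 libraries were below all WT libraries, with a log2 fold change of −0.90 ± 0.27 and an edgeR adjusted p of 0.0565. SWC6, another SWR1 subunit, fell by 1.70 on the log2 scale (edgeR adjusted p = 0.0378, 0.0103 to 0.133 over 9 other fits).

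H3K27me3 regions of both tables held 7032 listed genes, of which 2235 passed the filter on low counts. Of those tested, 170 were higher and 98 lower in pie1-5, or 12% called, against 7.36% of all genes tested. A gene silent in WT passes that filter only through other libraries, so this share is not read as an excess. The regions of the genes called higher had median H3K27me3 log2 ratios of −0.56 and −0.22, and those of genes called lower −0.27 and −0.29. Regions of tested genes that were not called had −0.46 and −0.23. Across the 2235 genes, which are not replicates, the transcript log2 fold change correlated with the H3K27me3 ratio at r = −0.18 in replicate 1 and 0.01 in replicate 2. A lower H3K27me3 level in the gene's region therefore went with higher transcripts weakly in replicate 1 and not in replicate 2.

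Of 11 floral genes tested, 2 rose and 1 fell, where 3.80% of all genes tested rose and 3.56% fell. The lists were chosen with earlier results of these data known. This count and those of the lists below are thus not read as an excess. SEP3 had 0.903, 5.35 and 4.19 CPM in pie1-5, against 0.263, 0.371 and 0.396 CPM in WT, a log2 fold change of 3.33 ± 0.55 (edgeR adjusted p = 0.00214). AP3 had 0.654, 3.73 and 2.01 CPM in pie1-5, against 0.0750, 0.309 and 0 CPM in WT (3.91 ± 1.04, edgeR adjusted p = 0.0316, up to 0.125 in other fits). In both genes every pie1-5 library was above every WT library, and pie1-5 replicate 1 was the lowest of its group. The anther markers A9 and AMS, a tapetal gene and a tapetal regulator, had 0, 2.64 and 0.682 CPM and 0, 1.02 and 0.0341 CPM in the same pie1-5 libraries, against 0 in all WT libraries. Their part in the rise was not tested. AGL24, whose region had more H3K27me3 in both pie1-5 libraries, had 1.90, 4.01 and 3.75 CPM in pie1-5 and 10.6, 10.5 and 7.52 CPM in WT (−1.57 ± 0.34, edgeR adjusted p = 0.0109). AG was at 0.187, 1.05 and 0.886 CPM in pie1-5 and 0.675, 0.401 and 0.132 CPM in WT and did not pass (edgeR adjusted p = 0.550).

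FLC and 3 of its relatives fell, and the H3K27me3 levels of the regions of FLC, MAF4 and MAF5 were below WT in both pie1-5 libraries. MAF4 had 0.0622, 0.0318 and 0.0682 CPM in pie1-5, against 1.99, 1.39 and 0.308 CPM in WT (log2 fold change −4.42 ± 0.72, edgeR adjusted p = 0.00193). MAF5 had 0.124, 0 and 0.307 CPM in pie1-5, against 7.88, 4.60 and 1.19 CPM in WT (−4.98 ± 0.85, edgeR adjusted p = 0.00280). In both genes the groups did not overlap. FLC had 0.0934, 0 and 0 CPM in pie1-5, against 0.750, 0.927 and 0.264 CPM in WT, with an edgeR adjusted p of 0.0162 that reached 0.0524 in other fits. FT, which these repressors hold down, had 0.685, 3.53 and 3.24 CPM in pie1-5 and 0.863, 0.710 and 1.19 CPM in WT, and did not pass (edgeR adjusted p = 0.0768). Of the 14 flowering time genes tested, 4 fell and 0 rose, the fourth being MAF3 (−0.99 ± 0.25, edgeR adjusted p = 0.0228, up to 0.0797 in other fits), which lay in no region of both tables. Over all genes tested, 3.56% fell and 3.80% rose. The other relatives, FLM and MAF2, did not pass, with log2 fold changes of −0.11 ± 0.26 and −0.07 ± 0.25 (edgeR adjusted p = 0.852 and 0.915).

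Among meristem genes, 2 of 8 tested rose and 0 fell (3.80% and 3.56% of all genes tested). KNAT1 had 13.2, 11.5 and 8.69 CPM in pie1-5, against 4.69, 5.81 and 4.70 CPM in WT (1.13 ± 0.23, edgeR adjusted p = 0.00884). The groups did not overlap. KNAT6, a relative of KNAT1, also rose (1.31 ± 0.38, edgeR adjusted p = 0.0461, up to 0.153 in other fits). STM had 1.96, 1.94 and 2.08 CPM in pie1-5 and 1.65, 2.50 and 1.01 CPM in WT and did not pass (edgeR adjusted p = 0.833).

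Of 11 defence genes tested, 6 rose and 0 fell (3.80% and 3.56% of all genes tested). This list too was chosen with earlier results of these data known, so the count is not read as an excess. NIMIN1, whose short region was split between replicates, had 4.92, 6.05 and 4.67 CPM in pie1-5, against 0, 0 and 0.0879 CPM in WT (edgeR adjusted p = 0.000528). WRKY38, a transcription factor gene of the salicylic acid response, had 2.33, 4.11 and 3.27 CPM in pie1-5, against 0.113, 0.371 and 0 CPM in WT (4.21 ± 0.81, edgeR adjusted p = 0.00772). Its region had log2 H3K27me3 ratios of −0.25 in both replicates, so a rise of its transcripts stood beside a small difference in the mark. PR5 rose by 1.18 ± 0.34 (edgeR adjusted p = 0.0452, up to 0.178 in other fits). WRKY70, ICS1 and EDS1, the other 3, lay in no region of both tables. PR2, with the lowest mean of both H3K27me3 ratios among listed genes, had 47.4, 170.1 and 235.7 CPM in pie1-5 and 66.0, 88.6 and 43.6 CPM in WT, groups that overlapped (edgeR adjusted p = 0.166).

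Seed genes had low transcript levels, with the list summing to 1.59 to 5.01 CPM in pie1-5 and 0.863 to 0.967 CPM in WT. LEC1 was at 0 in all 6 libraries. PHE2, a MADS-box gene, was the 1 of 5 seed genes tested to rise (3.80% of all genes tested), with 0.218, 0.0955 and 0.375 CPM in pie1-5 and 0 in all WT libraries (edgeR adjusted p = 0.0335, up to 0.0905 in other fits). Of 22 Polycomb, demethylase and Trithorax-type genes tested, RING1B, for a subunit of Polycomb complex 1 (1.22 ± 0.32, edgeR adjusted p = 0.0290), and JMJ30, for a histone demethylase (2.47 ± 0.60, edgeR adjusted p = 0.0207), rose and 0 fell (3.80% and 3.56% of all genes tested). Both lost the call in some other fits, with adjusted p up to 0.105 and 0.104. The methyltransferase genes CLF and SWN did not pass, with log2 fold changes of 0.33 ± 0.27 and 0.22 ± 0.22 (edgeR adjusted p = 0.528 and 0.613).

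**Figure D5:**
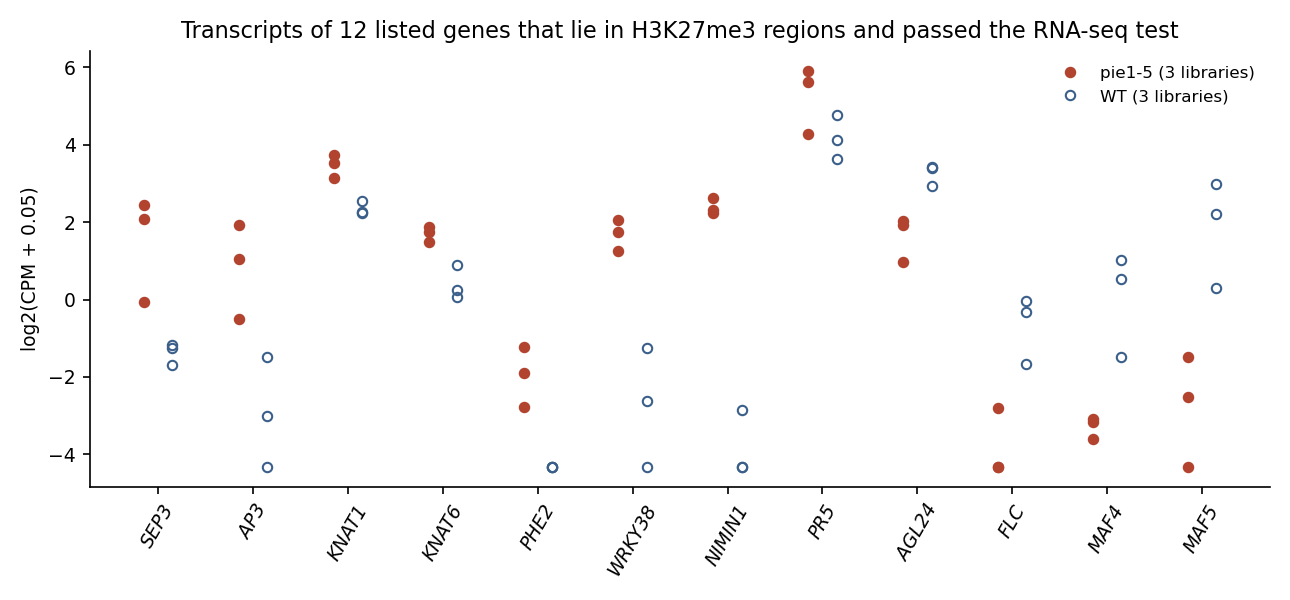
Transcript levels, log2(CPM + 0.05), of 12 listed genes that lie in H3K27me3 regions and passed the RNA-seq test, with 3 pie1-5 libraries (filled) left of 3 WT libraries (open). SEP3 to PR5 are higher in pie1-5 and AGL24, FLC, MAF4 and MAF5 lower, and for PR5 the groups overlap.

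In regions at least 1.5-fold lower in both pie1-5 libraries, 101 genes were tested, of which 9 rose and 5 fell. That is 13.9% called, against 12% in all paired regions and 7.36% of all genes tested. The genes named here were chosen after their values were seen. LTI65, a dehydration-induced gene in a region with log2 H3K27me3 ratios of −2.20 and −0.88, had 7.25, 4.17 and 4.19 CPM in pie1-5, against 0.563, 0.741 and 0.264 CPM in WT (3.28 ± 0.75, edgeR adjusted p = 0.0159, up to 0.0657 in other fits). AT3G62460, named above, had 6.04, 5.41 and 4.77 CPM in pie1-5, against 2.48, 1.27 and 2.02 CPM in WT (1.497 ± 0.32, edgeR adjusted p = 0.00995). For both, less of the mark and more transcript in pie1-5 occurred together. TPS02, a terpene synthase gene with H3K27me3 ratios of −0.59 and −0.65, was at 0 in the pie1-5 libraries and at 0.413, 0.587 and 0.220 CPM in WT (edgeR adjusted p = 0.0106), the other direction.

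In regions at least 1.5-fold higher in both pie1-5 libraries, 125 genes were tested, of which 5 rose and 2 fell. That is 5.6% called, against 12% in all paired regions and 7.36% of all genes tested. The mitochondrial insertion, with 171 annotated genes, is 1 of these 55 regions, and the share without it was not taken. XRCC4, for a factor of DNA end joining, and RLP37, for a receptor-like protein, share 1 such region with log2 H3K27me3 ratios of 0.85 and 1.43. XRCC4 had 0.809, 1.497 and 1.33 CPM in pie1-5, against 4.76, 5.68 and 4.83 CPM in WT (−2.07 ± 0.28, edgeR adjusted p = 0.000605). RLP37 had 10.4, 7.67 and 10.2 CPM in pie1-5, against 3.60, 4.51 and 1.89 CPM in WT (1.49 ± 0.34, edgeR adjusted p = 0.0145, up to 0.0595 in other fits). Neighbours in 1 region thus went in opposite directions. AT1G49790, named above, was at 0 in pie1-5 and at 0.338, 0.865 and 0.659 CPM in WT (edgeR adjusted p = 0.0280, up to 0.0708). Of the genes that rose, 4 lie in the mitochondrial insertion, ABCI4, AT2G07722, AT2G00500 and AT2G00520, whose reads cannot be told from those of the organelle.

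Among the transcript calls with the smallest adjusted p within H3K27me3 regions, the mark differed from WT by small and by large amounts, and the examples were again chosen after their values were seen. GPAT3, an acyltransferase gene, had 39.2, 33.8 and 36.3 CPM in pie1-5, against 5.89, 4.42 and 9.84 CPM in WT (2.45 ± 0.27, edgeR adjusted p = 0.000112), and its region had H3K27me3 ratios of −0.28 and −0.26. DIN11, a dark-inducible dioxygenase gene, had 7.75, 10.2 and 6.82 CPM in pie1-5, against 52.8, 60.7 and 69.0 CPM in WT (−2.88 ± 0.24, edgeR adjusted p = 7.87e-06), with H3K27me3 ratios of −0.51 and −0.23. CER1, a gene of wax alkane synthesis, had 69.9, 61.7 and 68.6 CPM in pie1-5, against 24.8, 18.5 and 29.8 CPM in WT (1.45 ± 0.18, edgeR adjusted p = 0.000293), with H3K27me3 ratios of −0.68 and 0.09. Transcript levels of the genotypes did not overlap in these 3 genes. Others of these calls lay in regions with wider H3K27me3 differences, such as AT1G65150, which rose by 2.50 ± 0.31 on the log2 scale (edgeR adjusted p = 0.000350) and whose region had ratios of −2.19 and −0.20.

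Regions found in 1 table only were mostly higher in pie1-5. The replicate 1 table had 556 regions with no match in the other, with a median log2 ratio of 0.93, and the replicate 2 table had 713 with a median of 0.62. A region called in the pie1-5 library and not in the other replicate is selected for reads in that library, so these medians are no comparison of genotypes. Of those of replicate 1, 28 were at least 3-fold higher with at least 1000 pie1-5 reads, and 21 of these were on chromosome 1. They held 331199 reads in pie1-5 replicate 1 (2.07% of the library), against 49078 in WT (0.361%). The replicate 2 table had 3 such regions with 3257 reads in pie1-5 replicate 2 and 759 in WT.

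Many of the large ones lay together near the middle of chromosome 1. Between 15 and 15.5 Mb the table of pie1-5 replicate 1 had 19 regions over 258.8 kb, with 268699 reads in pie1-5 and 37937 in WT, a 6.01-fold ratio of RPM. The largest was chr1:15087201-15154000 with 117467 reads in pie1-5 and 19357 in WT. In the same stretch the tables of pie1-5 replicate 2 and of both pkl-1 replicates had 0 regions. Those of clf-28 had 1 and 11 regions, over 0.4 and 57.4 kb, with 2.47-fold and 7.02-fold ratios of RPM. The H2A.Z table of pie1-5 replicate 1 had 22 regions there with an 8.18-fold ratio, and that of replicate 2 had 0. Among the pie1-5 libraries, this stretch therefore held regions with both antibodies in replicate 1 and with neither in replicate 2. Reads outside regions are not given, so a count of 0 regions does not mean that no reads lay there.

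The other mutants share the WT column, so their ratios are not independent. Set beside them, pie1-5 had the smaller differences in most libraries over all regions and in long ones. Over 5017 regions the median log2 ratios were −0.45 and −0.21 in pie1-5, −0.69 and −0.93 in pkl-1 and −0.40 and −1.85 in clf-28. In regions over 8 kb they were −0.29 and −0.25 in pie1-5, −0.82 and −0.94 in pkl-1 and −0.78 and −2.11 in clf-28. In 1591 regions of up to 2 kb they were −0.87 and −0.12 in pie1-5, −0.57 and −0.89 in pkl-1 and −0.10 and −1.49 in clf-28. There pie1-5 replicate 1 was further from WT than pkl-1 replicate 1 and clf-28 replicate 1. For the AG region the values were −0.36 and −0.40 in pie1-5, −1.04 and −1.29 in pkl-1 and −2.69 and −3.18 in clf-28. No test was made between mutants, and the doubt about pie1-5 replicate 2 and pkl-1 replicate 1 holds here too. The clf-28 libraries were shallower, at 6.44 and 3.17 M reads.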

How the data were processed

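The samples are 3-week-old shoots. Per the submitters' processing notes, Trimmomatic, Bowtie2, SICER, edgeR, bedtools and deepTools were used with TAIR10, and neither versions nor settings are stated there. Per the labels' protocols, ChIP used the antibody Millipore 07-449. For each ChIP replicate the authors deposited SICER regions in windows of 200 bp with the reads of both libraries as counts and as RPM (reads divided by the library total), their ratio, and 1-sided p-values with an FDR for each direction. For RNA-seq they deposited counts per gene. Signal relative to input or H3 was not analysed here. RPM uses all reads, so a lower share of reads in regions lowers every level.

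Library totals were recovered from counts and RPM. Regions of both tables were paired and their counts tested with edgeR 4.0.16 (R 4.3.3, quasi-likelihood, library totals, region length as offset, Benjamini-Hochberg over 5180 regions), checked on simulated data. The planned test of 2 against 2 libraries became 2 against 1 because the WT column is 1. H2A.Z was tested likewise on its 2 tables with 2 WT columns. RNA counts were tested with TMM and the default filter in 1 fit of 12 libraries. DESeq2 1.42.0 was an alternative, and the other alternatives are in the closing section. SE is from the fit. In the test of 2 against 1, p-values rest on the spread between the 2 mutant libraries only, as the spread of WT was not measured. In the H2A.Z and RNA tests, they measure the spread between the libraries of each group. The libraries are called independent replicates in the design text. PCR copies cannot be told apart.

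Genes were placed with a RefSeq table of TAIR10.1, used for names and placing only. As a check, 42 of 46 listed genes lay in regions as placed, and 10 and 3 after a shift of 20 kb either way. Members and gene lists were chosen with earlier results of these data known. Named were called regions, the 5 with most WT reads and the 5 longest, listed genes in regions, called transcripts of called regions, and always AG, FLC, FT, LEC1, SEP3 and STM. Regions 1.5-fold from WT in both replicates, and called transcripts in other regions, were named after their values were seen. The RNA strand is not marked, so overlapping genes cannot be told apart. In the RNA libraries, same-numbered samples did not deviate together. Values of 1 listed gene are not reported here. The authors' RNA-seq table of fold changes was not used.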

Additional observations from a re-analysis of the deposited data

How the results depend on the processing

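The count of H3K27me3 regions called by edgeR (1 of 5180) was 3 with TMM factors, 4 with upper-quartile factors, 2 with DESeq2 and 0 when all H3K27me3 columns shared 1 fit. It stayed 1 with a stricter overlap, a filter of 100 reads, no length offset and a fold of at least 1.5. Chosen after seeing the data, identical boundaries only gave 2, and leaving out any pie1-5, pkl-1 or clf-28 library from the common fit gave 0. Without pie1-5 replicate 1 or 2, the fit against WT had no residual degree of freedom, and the median log2 fold change was −0.17 and −0.45. The H2A.Z count (3) was 0 with a stricter overlap and 0 to 13850 without 1 library. The RNA-seq count (1500) was 2358 with no filter and 749 to 2011 without 1 library. Scaled to the reads inside regions, the median log2 ratio of both replicates was −0.0884 in place of −0.32 over all regions, −0.0877 for 2 to 4 kb, −0.0754 for 4 to 8 kb, −0.0460 for 8 to 16 kb, −0.00669 for over 16 kb and −0.0480 for regions not covered by H2A.Z; the shift, 0.28 and 0.19, is built into that scaling. The replicate block could not be fitted for H3K27me3 with 1 WT column. As the pairing of the RNA libraries by number had no basis (correlations of deviations 0.022, −0.034 and 0.038), the block, with 1509 genes, is given here only, and with the block H2A.Z gave 3 regions. Counts past the authors' FDR under a limit of 0.001 and 1.5-fold were 524 higher and 2025 lower in the replicate 1 table, and 609 and 892 in that of replicate 2. No called value changed sign, but listed regions, none of them called, did: 73 of 75 were lower with library totals and 40 with TMM factors, and the median of the salicylic acid list was −0.17 and 0.14. Low counts in short regions limit precision.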

Other observations

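Of the regions found in 1 table only, 487 of replicate 1 and 449 of replicate 2 had no base in common with any region of the other table. Outside chromosome 1, the largest of replicate 1 was chr4:3194801-3264000, with 44372 reads in pie1-5 replicate 1 and 7471 in WT. The H2A.Z regions called higher in pie1-5 outside the mitochondrial insertion were chr4:5267801-5268400, with 106.5 and 122.2 RPM per kb in pie1-5 and 11.8 and 13.5 in WT, and chr5:11752601-11784600, with 23.9 and 38.5 RPM per kb in pie1-5 and 2.30 and 5.17 in WT. These coordinates are those of replicate 1. On chromosome 5 the replicate 1 region spanned 32000 bp, with 6278 reads in pie1-5 and 1405 in WT. The matched region of replicate 2 was far shorter, with 238 and 60 reads. On chromosome 4 the reads were 525 and 135 over 600 bp in replicate 1, and 252 and 52 over a shorter region in replicate 2.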
